A study of Mus musculus and Rattus norvegicus with 30 samples.

Results

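Colony stimulating factor 1 and fractalkine signalling was followed through 5 genes in the dorsal root ganglion (DRG), where the cell bodies of sensory neurons lie beside the spinal cord. The genes were found by symbol, all 5 in the mouse table of 54315 features and all 5 in the rat table of 39281 features. They were Csf1 and Il34, the ligands of the receptor CSF1R, Csf1r itself, Cx3cl1, which encodes fractalkine, and Cx3cr1, which encodes the fractalkine receptor. BALB/c and B10.D2 mice, procured at 4 to 8 weeks of age and operated as adults, had spared nerve injury (SNI) or sham surgery. SNI severs the sural and common peroneal nerves but leaves the tibial nerve whole, and in sham animals the nerves were reached without injury. The L3 and L4 DRG of 1 animal made up a mouse library, taken 28 days after surgery. There were 6 BALB/c sham (3 male, 3 female), 4 BALB/c SNI (2 male, 2 female), 5 B10.D2 sham (3 male, 2 female) and 5 B10.D2 SNI (2 male, 3 female) libraries. Male Wistar rats had spinal nerve transection (SNT), in which the L5 spinal nerve is ligated and cut, or sham surgery. The L5 DRG of 3 rats were pooled into each of 4 sham and 4 SNT libraries 21 days after surgery. The study catalogued long noncoding RNAs of the DRG and how nerve injury changes them, and the comparisons here take the same libraries for these 5 protein-coding genes.

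CSF1 is a secreted growth factor on which most tissue macrophages and microglia depend. Interleukin 34 binds the same receptor without sequence likeness to CSF1 and is known from neurons and keratinocytes. CSF1R is a receptor tyrosine kinase of macrophages, monocytes and microglia. Sensory neurons with a cut axon are known to make Csf1. Fractalkine is a chemokine anchored in the membrane by a mucin-like stalk, from which proteases can release it, and its receptor CX3CR1 is a G protein-coupled receptor of monocytes, macrophages and microglia.

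The 250 bases before the start of mouse Csf1 are shown because Csf1 was the member that passed the test in both mouse strains and in rat. They were taken from RefSeq on GRCm38.p6 at chr3:107760470-107760719, minus strand, and hold no annotated exon of Csf1. Capitals mark the match to an NF-kB core motif.
Csf1: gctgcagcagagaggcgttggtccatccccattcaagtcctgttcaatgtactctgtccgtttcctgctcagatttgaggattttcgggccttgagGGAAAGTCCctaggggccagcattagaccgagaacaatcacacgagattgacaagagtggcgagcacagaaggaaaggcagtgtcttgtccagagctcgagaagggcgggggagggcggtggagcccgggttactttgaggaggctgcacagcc
The motifs searched on both strands were AP-1 (TGANTCA), CRE (TGACGTCA), PU.1 (GAGGAANT), C/EBP (TTGCNNAA), the NF-kB core (GGANNNTCC) and the TATA box (TATAAA), and they were chosen with this window in view. The window held 1 match, the NF-kB core, whose first base lay at -154 from the start, and no overlapping match. Of all 32851 RefSeq windows of this length, 7.27% held that core, 6.75% held AP-1, 1.55% held CRE, 5.97% held PU.1, 9.56% held C/EBP and 12.4% held the TATA box. A match describes letters in the window and was not tested as a binding site. RefSeq windows of Cx3cl1 and Cx3cr1 hold 171 and 250 bases of annotated exons and are named only.

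On the mouse genome (mm10, GENCODE M21) Csf1 (ENSMUSG00000014599) lies on the minus strand of chromosome 3 from 107741048 to 107760469. Il34 (ENSMUSG00000031750) lies on the minus strand of chromosome 8 from 110741829 to 110805924, and Cx3cl1 (ENSMUSG00000031778) on the plus strand of the same chromosome from 94772009 to 94782427. Csf1r (ENSMUSG00000024621) lies on the plus strand of chromosome 18 from 61100598 to 61132149. Cx3cr1 (ENSMUSG00000052336) lies on the minus strand of chromosome 9 from 119901616 to 120069879. All 5 are protein-coding genes. The deposited splice junctions matched 10 of 13 annotated introns of Csf1, 8 of 10 of Il34, 20 of 25 of Csf1r, 2 of 8 of Cx3cl1 and 1 of 3 of Cx3cr1. Csf1 and Cx3cl1 overlapped no other annotated gene. The exons of Csf1r shared 873 bases with Hmgxb3 on the opposite strand, those of Il34 shared 97 bases with 2 antisense RNAs, and those of Cx3cr1 shared 78 bases with the antisense RNA Gm33858. The libraries kept strand, but whether the counting used it was not given in the sources used here, so reads of these pairs may not be separable. No member shared exon bases with a gene on its own strand.

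Library totals were 29.99 to 41.9 M counts in mouse and 11.95 to 17.9 M in rat, and levels are given in CPM, the count scaled to a common library size after TMM adjustment. At least 104 counts stood behind every mouse value of the 5 genes. Sensory neuron markers were abundant in every library, at a summed 10026 to 14171 CPM over 10 genes in mouse. A list of 10 nerve injury genes checked the labels, and its sum was 222 to 287 CPM in the 11 mouse sham libraries and 349 to 896 CPM in the 9 SNI libraries. In rat, sham library 4 held a summed 932 CPM of injury genes against 347, 385 and 353 CPM in the other sham libraries and 1189 to 1715 CPM in SNT. Rat sham 4 and SNT 1 lay between the others on the first principal component, which took 68.5% of the variance. Rat results are therefore given with and without both. Each was the library of its group nearest the other group on that component of these same counts. Leaving them out tends by itself to raise fold changes and lower p-values, so values without both are a description only. In rat, Il34, Csf1r and Cx3cl1 were listed at 0 in all 8 libraries. Abundant DRG genes such as Nefl and Gap43 were also listed at 0 there, and no level or fold is given for these members in rat.

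Per length of exon, Il34 was the highest of the 5 genes in mouse DRG and Cx3cl1 the lowest. The length was the union of all annotated exons, 1.96 kb for Il34, 5.28 kb for Csf1 and 5.77 kb for Csf1r. Which transcripts were expressed was not tested. In CPM, without length, Csf1r had the highest mean in every mouse group. In BALB/c sham libraries the mean levels in CPM per kb of exon were 11.2 ± 1.25 for Il34, 5.54 ± 1.51 for Csf1r, 3.09 ± 0.303 for Csf1, 2.22 ± 0.875 for Cx3cr1 and 0.985 ± 0.162 for Cx3cl1 (SD, n = 6). Csf1 and Cx3cr1 did not differ beyond their spread. In B10.D2 sham libraries the order of Il34, Csf1r and Cx3cl1 was the same, at 11.1 ± 0.926, 6.49 ± 0.290 and 1.07 ± 0.196 CPM per kb, and Csf1 (3.30 ± 0.143) and Cx3cr1 (3.37 ± 0.416) again overlapped (SD, n = 5). In BALB/c SNI Csf1 reached 5.65 ± 0.193 CPM per kb (SD, n = 4), and its range no longer overlapped that of Csf1r at 7.69 ± 1.31. In B10.D2 SNI Csf1r at 9.09 ± 1.44 CPM per kb overlapped Il34 at 11.4 ± 1.04 (SD, n = 5).

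**Figure D1:**
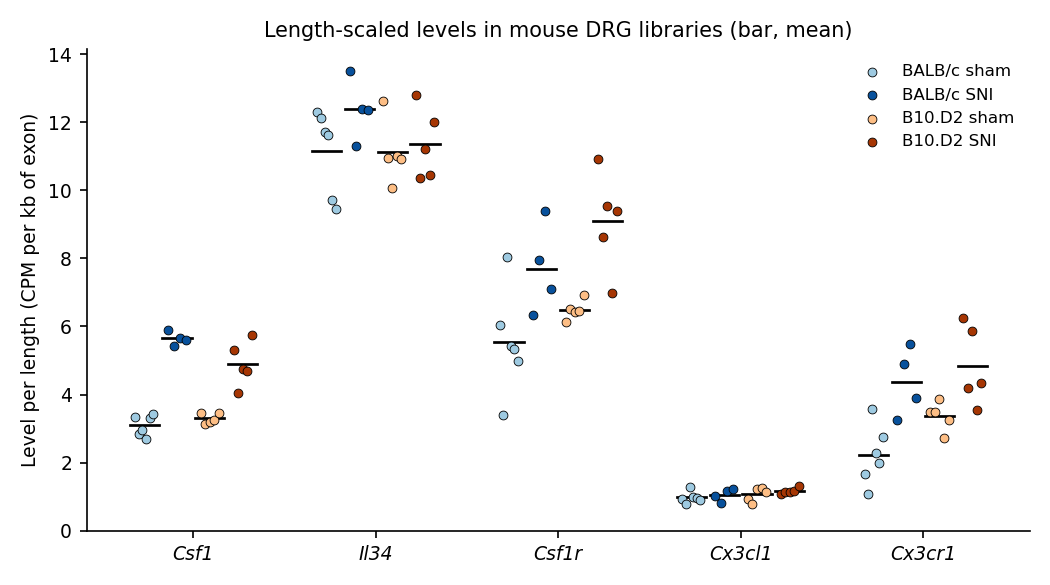
Levels of the 5 genes in CPM per kb of exon (y axis, linear) in each mouse library, with points coloured by group and a bar at each group mean. Il34 has the highest and Cx3cl1 the lowest mean in all 4 groups, and Csf1 rises from 3.09 to 5.65 CPM per kb in BALB/c.

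Csf1, the growth factor, rose after SNI in both strains, and its groups did not overlap in either. In BALB/c sham libraries it lay between 14.2 and 18.1 CPM with a median of 16.6 CPM (n = 6). In BALB/c SNI libraries 49, 64, 65 and 70 it was 31.1, 28.7, 29.9 and 29.6 CPM. Every SNI library lay above every sham library, and the 4 SNI values were close together. The change was 1.83-fold, 0.87 on the log2 scale (SE 0.077, 95% interval 0.71 to 1.03), with an adjusted p = 2.24e-07 in edgeR's quasi-likelihood test with Benjamini-Hochberg adjustment over all features, the test behind every adjusted p of a fold change below. In B10.D2 sham libraries 58, 60, 67, 77 and 88 Csf1 was 18.2, 16.6, 16.9, 17.2 and 18.2 CPM. In B10.D2 SNI libraries 69, 76, 78, 89 and 90 it was 28.03, 21.3, 25.1, 24.7 and 30.4 CPM. The groups did not overlap, and library 76, the lowest SNI library, was also lowest in summed injury genes, at 349 CPM against 552 to 633 CPM in the other 4. The change was 1.503-fold, 0.59 on the log2 scale (SE 0.077, interval 0.43 to 0.75, adjusted p = 7.91e-05).

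The rise of Csf1 was 0.28 log2 units smaller in B10.D2 than in BALB/c (SE 0.11, interval of the interaction -0.51 to -0.05). That difference had an unadjusted p of 0.0175 from edgeR and an adjusted p of 1, so it was not called. Over all features 0.0243% were called for this interaction.

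Il34, the other ligand, was not called in either strain. In BALB/c sham it lay between 18.5 and 24.1 CPM with a median of 22.9 CPM (n = 6), and in SNI libraries 49, 64, 65 and 70 it was 26.5, 22.2, 24.3 and 24.2 CPM. In B10.D2 sham libraries 58, 60, 67, 77 and 88 it was 24.7, 21.5, 19.7, 21.6 and 21.4 CPM, and in SNI libraries 69, 76, 78, 89 and 90 it was 25.1, 20.3, 21.9, 20.5 and 23.5 CPM. Sham and SNI overlapped in both strains. The log2 fold change was 0.15 in BALB/c (interval -0.02 to 0.32, adjusted p = 0.287) and 0.05 in B10.D2 (interval -0.13 to 0.22, adjusted p = 0.850). The intervals reach a 1.25-fold rise in BALB/c and a 1.16-fold rise in B10.D2.

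The balance of the ligands within a library moved towards Csf1 after SNI. The log2 ratio of Csf1 to Il34, each per kb of exon, was -1.85 ± 0.277 in BALB/c sham (SD, n = 6) and -1.13 ± 0.056 in BALB/c SNI (SD, n = 4), a difference of 0.72. An exact permutation test (two-sided) gave p = 0.00952, the smallest this design allows, and 0.0333 after adjustment over 7 ratio tests. In B10.D2 the ratio was -1.75 ± 0.094 in sham and -1.22 ± 0.112 in SNI (SD, n = 5 each), a difference of 0.53. The exact permutation p was 0.00794, again the smallest possible, and 0.0333 adjusted. Il34 remained the higher ligand per length in every mouse library, since the highest ratio was -1.06. Without length scaling, mean Csf1 exceeded mean Il34 after SNI. The means were 29.8 and 24.3 CPM in BALB/c and 25.9 and 22.3 CPM in B10.D2.

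Csf1r, the receptor, rose after SNI in BALB/c in the test as run, and that call depended on single libraries. In BALB/c sham it lay between 19.6 and 46.4 CPM with a median of 31.1 CPM (n = 6), and in SNI libraries 49, 64, 65 and 70 it was 36.5, 45.9, 54.2 and 40.9 CPM. Sham library 55, at 46.4 CPM, exceeded 3 of the 4 SNI libraries. The log2 fold change was 0.47 (SE 0.14, interval 0.19 to 0.76, adjusted p = 0.0325), which is 1.39-fold. Without the sex term the adjusted p was 0.0609, with BALB/c fitted alone it was 0.0860, and it was above 0.05 in 7 of the 20 fits that left out 1 library (BALB/c sham 51, 56, 57 or 71, or SNI 64, 65 or 70), reaching 0.134 without SNI 65. In B10.D2 sham libraries 58, 60, 67, 77 and 88 Csf1r was 35.3, 37.6, 37.2, 37.2 and 40.0 CPM. In B10.D2 SNI libraries 69, 76, 78, 89 and 90 it was 63.0, 49.7, 55.01, 40.3 and 54.3 CPM. The groups did not overlap, although SNI 89 exceeded the highest sham library by less than 1 CPM. The log2 fold change was 0.43 (SE 0.14, interval 0.14 to 0.71), with an adjusted p = 0.0877, so it was not called. DESeq2 gave 0.0353 for it and edgeR on B10.D2 alone gave 0.0129. The strains' changes differed by -0.05 (interval -0.46 to 0.36, unadjusted p = 0.806 in edgeR).

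Cx3cl1, the fractalkine gene, was low and was not called in either strain. In BALB/c sham it lay between 3.13 and 5.04 CPM with a median of 3.76 CPM (n = 6), and in SNI libraries 49, 64, 65 and 70 it was 4.05, 3.23, 4.54 and 4.85 CPM. In B10.D2 sham libraries 58, 60, 67, 77 and 88 it was 3.65, 3.14, 4.78, 4.92 and 4.49 CPM, and in SNI libraries 69, 76, 78, 89 and 90 it was 4.19, 4.49, 4.41, 4.55 and 5.15 CPM. The log2 fold changes were 0.11 in BALB/c (interval -0.18 to 0.40, adjusted p = 0.699) and 0.10 in B10.D2 (interval -0.18 to 0.39, adjusted p = 0.778). These intervals reach a 1.32-fold and a 1.31-fold rise.

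Cx3cr1, the fractalkine receptor, rose in BALB/c and varied widely among BALB/c sham libraries. In BALB/c sham it lay between 4.81 and 16.1 CPM with a median of 9.62 CPM (n = 6), and in SNI libraries 49, 64, 65 and 70 it was 14.6, 22.02, 24.7 and 17.5 CPM. Sham library 55 at 16.1 CPM lay above SNI 49, and the other sham libraries lay below every SNI library. The change was 1.96-fold, 0.97 on the log2 scale (SE 0.20, interval 0.55 to 1.39, adjusted p = 0.00308). In B10.D2 sham libraries 58, 60, 67, 77 and 88 Cx3cr1 was 15.7, 15.8, 17.4, 12.3 and 14.7 CPM. In B10.D2 SNI libraries 69, 76, 78, 89 and 90 it was 28.2, 18.8, 26.4, 16.0 and 19.5 CPM. SNI 89 lay within the sham range. The log2 fold change was 0.42 (SE 0.20, interval 0.00 to 0.84, adjusted p = 0.294). The difference between the strains' changes was -0.55 (SE 0.29, interval -1.15 to 0.04), with an unadjusted p of 0.0669 in edgeR and an adjusted p of 1.

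Of the 5 members, 3 rose in BALB/c and 1 rose in B10.D2, where Csf1 passed. Over all 24685 features tested in mouse, 9.69% were called in BALB/c, 4.82% as higher, and 4.58% in B10.D2, 2.10% as higher. Groups that did not overlap were seen for Csf1 in BALB/c and for Csf1 and Csf1r in B10.D2, against 8.61% and 5.18% of all features. The median log2 fold change was 0.47 over the members and 0.00 over all features in BALB/c, and 0.42 and 0.01 in B10.D2. Scaled by library totals alone, the higher and lower calls over all features were 1562 and 875 in place of 1190 and 1202 in BALB/c, and 603 and 454 in place of 519 and 611 in B10.D2. No member changed its direction or its call with that scaling.

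**Figure D2:**
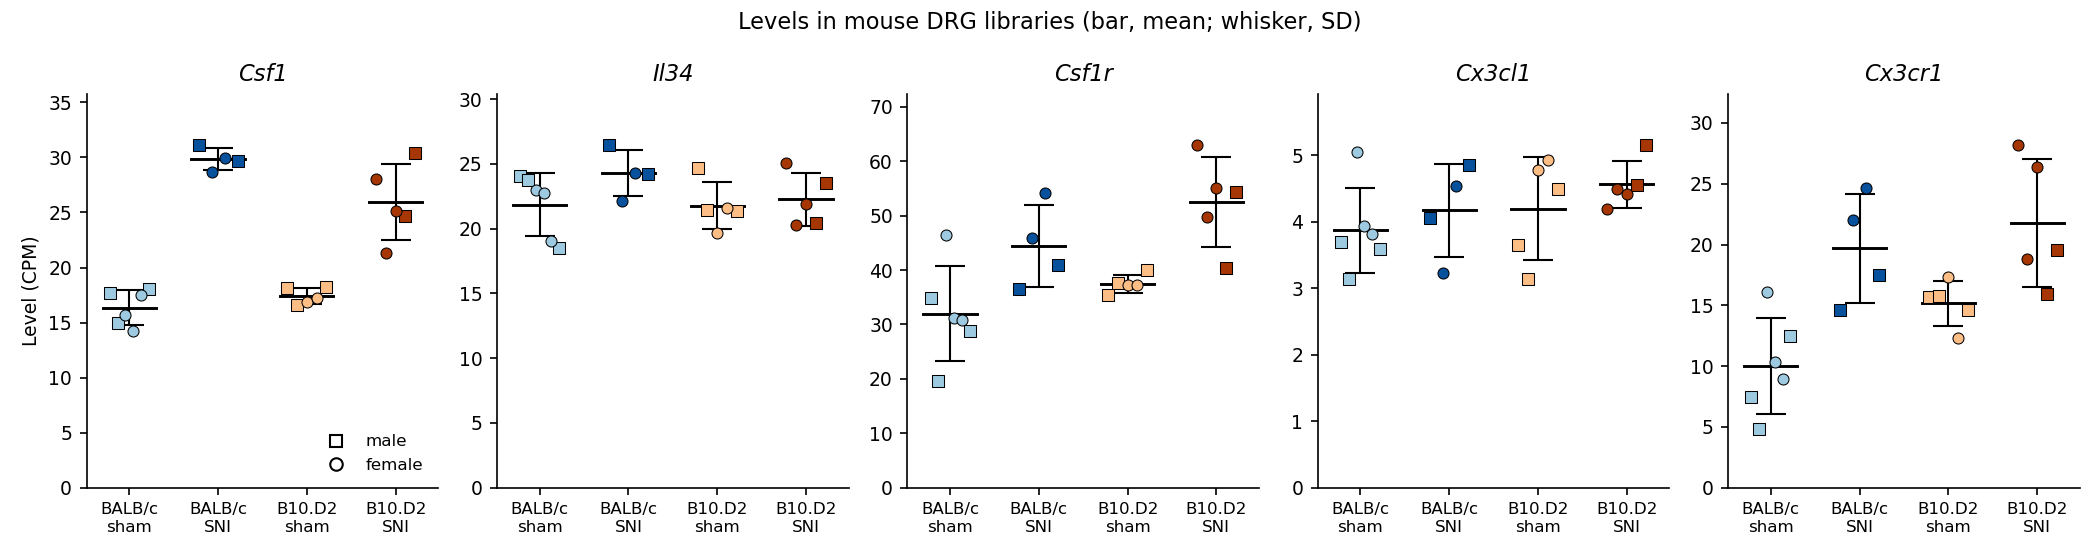
Level in CPM (y axis, linear from 0) of each gene in every mouse library by group, squares for males and circles for females, with the mean as a bar and the SD as whiskers. Csf1 in SNI lies above every sham library of the same strain, and Il34 and Cx3cl1 overlap between sham and SNI.

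**Figure D3:**
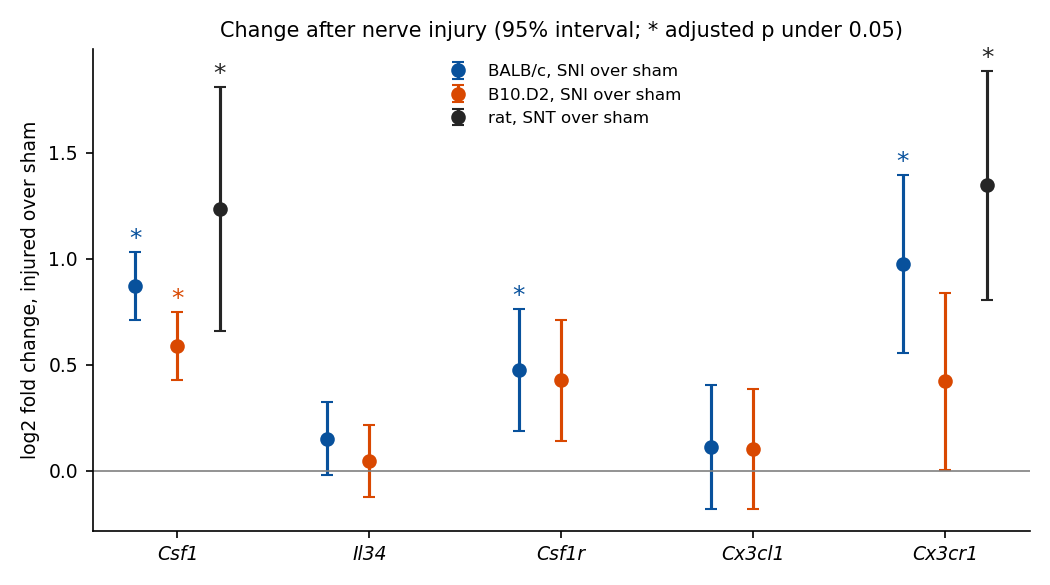
Change after injury on the log2 scale, as injured over sham libraries, with the 95% interval (y axis) for each gene in BALB/c, B10.D2 and rat, with an asterisk where the adjusted p from edgeR is under 0.05. Csf1 passes in all 3 comparisons, and the intervals of Il34 and Cx3cl1 include 0. Il34, Csf1r and Cx3cl1 have no rat point, since they are listed at 0 there.

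In rat DRG both measured members rose after SNT. Csf1 (ENSRNOG00000018659) was 27.5, 32.6, 28.6 and 63.7 CPM in sham libraries 1 to 4 and 72.9, 103, 85.9 and 97.9 CPM in SNT libraries 1 to 4. The groups did not overlap, and sham 4 stood far above the other sham libraries. The change was 2.35-fold, 1.23 on the log2 scale (SE 0.26, interval 0.66 to 1.81, adjusted p = 0.0131). Cx3cr1 (ENSRNOG00000018509) was 16.6, 11.3, 15.2 and 27.8 CPM in sham and 41.5, 51.02, 48.5 and 39.1 CPM in SNT. It did not overlap either, and sham 4 was again highest of its group. The change was 2.54-fold, 1.35 on the log2 scale (SE 0.24, interval 0.81 to 1.89, adjusted p = 0.0109). Over the 13690 rat features tested, 27.4% were called, 12.3% as higher, and 26.5% did not overlap between groups. Without sham 4 and SNT 1 the log2 fold changes were 1.69 for Csf1 (adjusted p = 1.59e-05) and 1.70 for Cx3cr1 (adjusted p = 1.01e-04). Those libraries were chosen for lying between the groups, which tends by itself to widen the difference. Rat and mouse values differ in surgery, ganglion, day and RNA fraction and were not compared by a test.

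**Figure D4:**
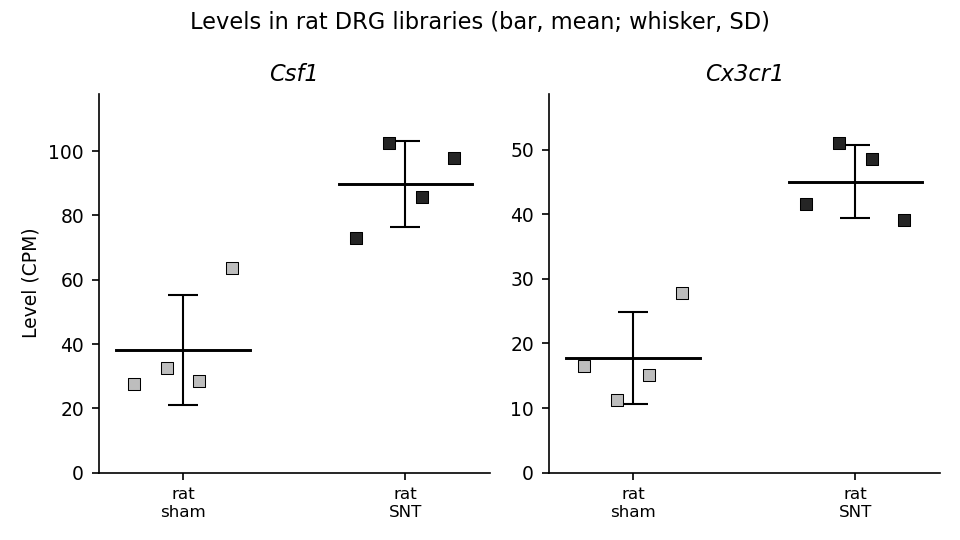
Level in CPM (y axis, linear from 0) of Csf1 and Cx3cr1 in the 8 rat libraries, each of 3 pooled males, with the mean as a bar and the SD as whiskers. All SNT libraries lie above all sham libraries, and sham 4 stands apart at 63.7 CPM of Csf1 and 27.8 CPM of Cx3cr1.

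Between the strains, Cx3cr1 differed in sham DRG. Its mean was 15.2 ± 1.87 CPM in B10.D2 sham (SD, n = 5) and 10.01 ± 3.94 CPM in BALB/c sham (SD, n = 6), a log2 difference of 0.66 (SE 0.19, interval 0.26 to 1.07, adjusted p = 0.0168). The ranges overlapped, and without the sex term the adjusted p was 0.0571. Macrophage markers moved with this difference: 7 of 14 were called higher in B10.D2 sham, 13 of 14 had a log2 difference above 0, and the median was 0.46. Their sum was 247 to 291 CPM in B10.D2 sham and 135 to 316 CPM in BALB/c sham, and their part in the Cx3cr1 difference was not tested. The other 4 members were not called in sham, with log2 differences of 0.09 for Csf1, -0.01 for Il34, 0.27 for Csf1r and 0.13 for Cx3cl1. Over all features 21.6% were called between strains in sham. After SNI no member was called between strains, where 20.8% of all features were. Csf1 came nearest, at -0.20 (interval -0.36 to -0.03, adjusted p = 0.0892), with 25.9 ± 3.45 CPM in B10.D2 SNI (SD, n = 5) and 29.8 ± 1.02 CPM in BALB/c SNI (SD, n = 4). Without B10.D2 SNI 69 its adjusted p was 0.0446, and without B10.D2 SNI 90 it was 0.0336.

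Between sexes no member was called, where 0.243% of all features were. The receptors had log2 differences between males and females of -0.25 for Csf1r (interval -0.45 to -0.05, unadjusted p = 0.0189 in edgeR, adjusted p = 0.307) and -0.37 for Cx3cr1 (interval -0.67 to -0.07, unadjusted p = 0.0176 in edgeR, adjusted p = 0.299). Mean Cx3cr1 in males and females was 8.24 and 11.8 CPM in BALB/c sham, 16.1 and 23.3 CPM in BALB/c SNI, and 17.7 and 24.5 CPM in B10.D2 SNI. B10.D2 sham went the other way, at 15.4 CPM in males and 14.8 CPM in females. Mean Csf1r in males and females was 27.8 and 36.2 CPM in BALB/c sham, 38.7 and 50.03 CPM in BALB/c SNI, 47.3 and 55.9 CPM in B10.D2 SNI, and 37.6 and 37.2 CPM in B10.D2 sham. Macrophage markers moved with the receptors: 14 of 14 had a log2 difference below 0 between males and females, with a median of -0.23, and none was called by edgeR. Their part in the receptor differences was not tested. No feature was called for a different injury change between sexes (0%), with 1353 at an unadjusted p under 0.05 in edgeR and 1 called by DESeq2. The member with the smallest unadjusted p there was Cx3cl1, whose injury change was 0.50 log2 units higher in males (interval 0.16 to 0.85, unadjusted p = 0.00648 in edgeR, adjusted p = 0.892). Its mean in BALB/c was 3.47 CPM in sham males and 4.45 CPM in SNI males, against 4.27 and 3.89 CPM in females.

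Genes of the CSF1R route were followed as a list of 14, which holds signalling genes of the route and macrophage transcription factors that act with it. In BALB/c 4 of 14 rose (Inpp5d, Irf8, Trem2, Tyrobp) and 1 fell (Sos1), and in B10.D2 1 of 14 rose (Trem2). Of all features tested, 9.69% were called in BALB/c and 4.58% in B10.D2, so the B10.D2 count is near that share. Trem2, a receptor of macrophages that signals through the adaptor Tyrobp, changed by 0.84 (SE 0.17, adjusted p = 0.00235) in BALB/c and 0.82 (SE 0.17, adjusted p = 0.00712) in B10.D2 on the log2 scale. Tyrobp changed by 0.58 (adjusted p = 0.0213) in BALB/c and had a log2 fold change of 0.52 in B10.D2 (adjusted p = 0.0563). Irf8, a transcription factor of macrophages and monocytes, changed by 0.60 (adjusted p = 0.0323) in BALB/c and had a value of 0.25 in B10.D2 (adjusted p = 0.524). Sos1, a guanine nucleotide exchange factor of Ras used by many receptors, fell by 0.26 in BALB/c (adjusted p = 0.0314). The number of list genes called in BALB/c ran from 1 without SNI 49 to 6 without sham 50, and in B10.D2 from 1 to 3, at 3 without BALB/c sham 55. The BALB/c call was lost in 3 of 20 fits without 1 library for Tyrobp, in 7 for Irf8 and in 5 for Sos1. The list's median log2 fold change was 0.29 in BALB/c and 0.18 in B10.D2. In rat none of the 10 list genes tested was called by edgeR's test, where 27.4% of all features were, and 4 were listed at 0. Without rat sham 4 and SNT 1, 7 of them were called, and without sham 4 alone also 7. Calls over all rat features were 6100 without both, against 3753 with all libraries. Trem2 had a rat log2 fold change of 0.27 (adjusted p = 0.787) over all libraries and rose by 1.73 (adjusted p = 0.00399) without both, and Tyrobp had 0.71 (adjusted p = 0.278) and rose by 1.58 (adjusted p = 9.71e-04) without both.

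Of 13 related growth factor genes, 11 were tested in mouse. These are other colony stimulating factors, receptors related to CSF1R with their ligands, and other proteins that bind interleukin 34. In BALB/c Sdc1 and Csf2rb rose and Flt3 fell, and in B10.D2 Sdc1 rose and Flt3 fell. Of all features tested, 9.69% were called in BALB/c, 4.58% in B10.D2 and 27.4% in rat. Sdc1, syndecan-1, a heparan sulfate proteoglycan that binds interleukin 34, changed by 1.07 (SE 0.11, adjusted p = 1.33e-06) in BALB/c, 0.67 (SE 0.11, adjusted p = 8.57e-04) in B10.D2 and 1.52 (SE 0.37, adjusted p = 0.0176) in rat on the log2 scale. Csf2rb, the shared beta chain of the receptors for GM-CSF, interleukin 3 and interleukin 5, changed by 0.66 (adjusted p = 0.00598) in BALB/c and 1.05 (adjusted p = 0.0466) in rat, with a value of 0.40 in B10.D2 (adjusted p = 0.156). Flt3, a receptor kinase related to CSF1R, fell by 0.32 in BALB/c (adjusted p = 0.0154) and by 0.28 in B10.D2 (adjusted p = 0.0429). Csf3r, the G-CSF receptor, had values of 0.71 (adjusted p = 0.206), -0.09 (adjusted p = 0.940) and -0.01 (adjusted p = 0.983) in BALB/c, B10.D2 and rat. The rat call of Csf2rb was lost in 6 of 8 fits without 1 library, that of Sdc1 without sham 3 (adjusted p = 0.0556), and the call of Flt3 in 2 of 20 fits for BALB/c and 10 of 20 for B10.D2. The list's medians were 0.11, 0.06 and 0.52, the last over 4 rat genes tested. Without rat sham 4 and SNT 1 the rat changes were 2.25 for Sdc1 (adjusted p = 7.47e-06) and 1.67 for Csf2rb (adjusted p = 1.99e-04).

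Of 10 genes on the route of fractalkine, 6 rose in BALB/c, 2 in B10.D2 and 3 of 7 tested in rat, and none fell. The shares of all features called higher were 4.82%, 2.10% and 12.3%. The list holds proteases that act on fractalkine, inhibitory G protein subunits and integrin chains. Ctss, cathepsin S, a protease of macrophages that can cut fractalkine from the membrane, changed by 0.99 (SE 0.21, adjusted p = 0.00326) in BALB/c and 0.86 (SE 0.20, adjusted p = 0.0155) in B10.D2 on the log2 scale. Its mean was 13.6 CPM in sham and 27.4 CPM in SNI of BALB/c, and 24.3 and 46.0 CPM in B10.D2. Adam17, the sheddase of fractalkine in stimulated cells, changed by 0.29 (SE 0.065, adjusted p = 0.00593) in BALB/c, with values of 0.18 in B10.D2 (adjusted p = 0.140) and 0.54 in rat (adjusted p = 0.0698). The integrin chain Itgb1 changed by 0.24 (adjusted p = 1.58e-04) in BALB/c and 0.17 (adjusted p = 0.00712) in B10.D2. Itgav changed by 0.38 (adjusted p = 0.00159) in BALB/c and 0.52 (adjusted p = 0.0146) in rat, with 0.16 in B10.D2 (adjusted p = 0.268). Gnai2 and Gnai3, inhibitory G protein subunits, were the other genes that rose in BALB/c, and Gnai3 and Itga4 rose in rat. Ctss in B10.D2 missed the threshold without B10.D2 sham 77, SNI 69 or SNI 90 (adjusted p up to 0.0734). The list's medians were 0.21, 0.09 and 0.37. Without rat sham 4 and SNT 1, 6 list genes were called in rat, with Itgav at 0.63 (adjusted p = 0.00228) and Adam17 at 0.84 (adjusted p = 0.00143). That fit called 6100 features in all, against 3753 with all libraries. None of the list was called by edgeR without sham 3, and 1 was called without sham 1, SNT 2 or SNT 3.

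Markers of macrophages, the cells known to carry both receptors, moved with Csf1r and Cx3cr1. In a whole ganglion, more cells of a type and more RNA per cell cannot be told apart. In BALB/c 6 of 14 macrophage markers rose and in B10.D2 2 of 14 (Mpeg1, Ms4a7), with median log2 fold changes of 0.56 and 0.46. The shares of all features called higher were 4.82% and 2.10%. The number called ran from 2 without sham 51 to 10 without sham 50 in BALB/c, and from 1 without SNI 90 to 2 in B10.D2. Ms4a7, a membrane protein of macrophages, changed by 1.16 (SE 0.18, adjusted p = 2.56e-04) in BALB/c and 1.01 (SE 0.18, adjusted p = 0.00149) in B10.D2. The summed markers ranged from 135 to 316 CPM in BALB/c sham, 264 to 399 in BALB/c SNI, 247 to 291 in B10.D2 sham and 263 to 457 in B10.D2 SNI, and none was at 0. BALB/c sham 51 was lowest of all 20 libraries in this sum, in Csf1r and in Cx3cr1, and B10.D2 SNI 69 was highest in all 3. Sham 51 also held 4564 CPM of summed Schwann cell markers, against 1886 to 3504 CPM in the other BALB/c sham libraries. The part of tissue make-up in its receptor levels was not tested.

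In mouse, no change of a receptor relative to the summed macrophage marker counts passed the test, and the rat test could not have passed. The sum leans on Lyz2, with 76625 counts in mouse and 131149 in rat over all libraries. The next markers were Mrc1 in mouse at 35430 and C1qa in rat at 15158. With the mean of log2 marker counts in place of the sum, the rat difference for Cx3cr1 was 0.31. With 4 rat libraries a group, the smallest p the exact permutation test allows is 0.0286. Beside the other ratio tests that cannot fall under 0.05 after adjustment, so the rat test cannot decide. The log2 ratio of Csf1r to the markers was -2.73 ± 0.210 in BALB/c sham (n = 6) and -2.85 ± 0.186 in SNI (n = 4), with an exact permutation p = 0.352 and 0.574 after adjustment. In B10.D2 it was -2.83 ± 0.126 and -2.78 ± 0.062 (n = 5 each, exact permutation p = 0.492, adjusted 0.574). The ratio of Cx3cr1 to the markers was -4.45 ± 0.533 in BALB/c sham (n = 6) and -4.03 ± 0.272 in SNI (n = 4), a difference of 0.42 with an exact permutation p = 0.181 (adjusted 0.422). In B10.D2 that difference was 0.08 (n = 5 each, exact permutation p = 0.476, adjusted 0.574) and in rat 0.05 (n = 4 each, exact permutation p = 0.914), and without rat sham 4 it was -0.16. BALB/c sham 50 held 299.7 CPM of markers but 7.48 CPM of Cx3cr1, and it held 219 CPM of summed monocyte and neutrophil markers, against 38.6 to 132 CPM in the other BALB/c sham libraries. SNI 49, lowest of its group in Cx3cr1, held 359 CPM of these markers. None of the 8 monocyte and neutrophil markers was called after SNI in either strain by edgeR. In BALB/c 8 of 8 had a log2 fold change above 0, with a median of 0.835. In B10.D2 3 of 8 did, with a median of -0.067. Between strains after SNI, 5 of 8 were called lower in B10.D2, where 20.8% of all features were called. In sham 1 was called lower and 1 higher in B10.D2.

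**Figure D5:**
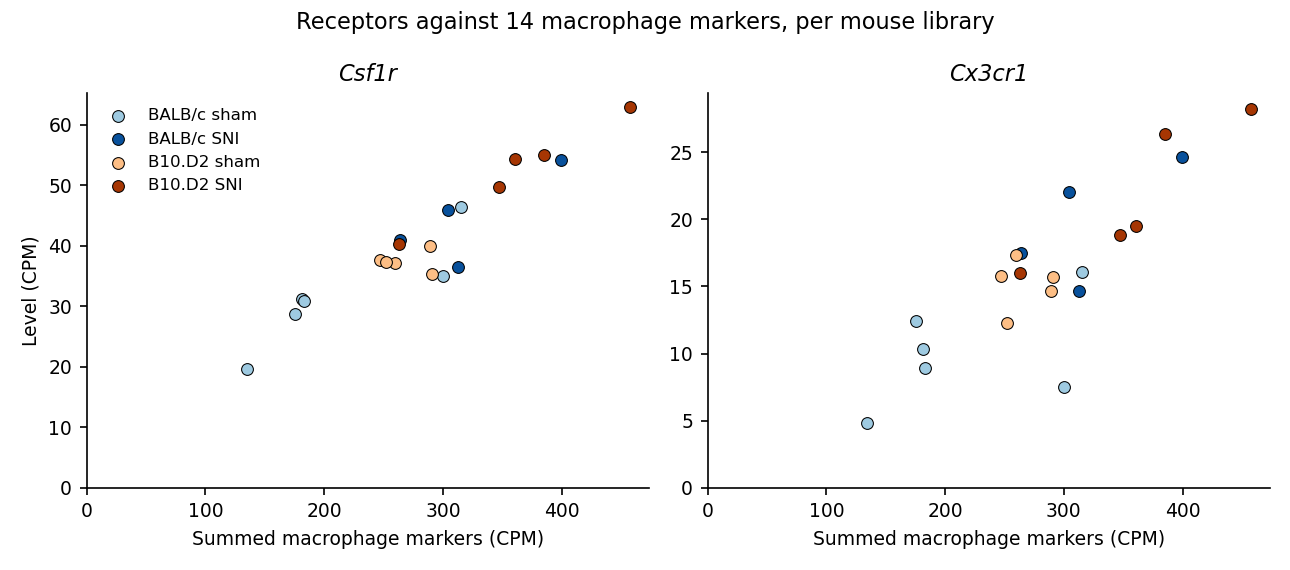
Csf1r and Cx3cr1 (y axes, CPM) against the summed CPM of 14 macrophage markers (x axis) in the 20 mouse libraries, coloured by group. BALB/c sham 51 is lowest and B10.D2 SNI 69 highest on every axis, and BALB/c sham 50 has 299.7 CPM of markers with 7.48 CPM of Cx3cr1.

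The rat macrophage sum was 449 to 817 CPM in sham 1 to 3, 1942 CPM in sham 4 and 1677 to 2451 CPM in SNT, over 8 markers with counts. Of these 8, Ms4a7 rose in rat (0.92 on the log2 scale, SE 0.30, adjusted p = 0.0455), and 7 were called without sham 4 and SNT 1 or without sham 4 alone. Features called without both numbered 6100, against 3753 with all libraries. The part of these cells in the rat change of Cx3cr1 was not tested beyond the ratio above. Among other cell type lists, neuron markers fell in 2 of 10 genes in each mouse strain and 3 of 4 tested in rat. For all these lists, the shares called over all features were 9.69% in BALB/c, 4.58% in B10.D2 and 27.4% in rat. Of 6 satellite glia markers only Cdh19 was called in mouse, and it rose in both strains. The median log2 fold change of those 6 was 0.12 in BALB/c and -0.004 in B10.D2. In B10.D2 the call of Cdh19 was lost in 5 of 20 fits without 1 library, and in rat 1 neuron marker was called without sham 2, sham 3, SNT 2, SNT 3 or SNT 4. No Schwann cell marker was called in either mouse strain by edgeR, and 1 of 3 tested rose in rat. The endothelial marker Cldn5, 1 of 4, passed in BALB/c, but not with RLE factors, with no low-count filter or in 15 of 20 fits without 1 library, and none of the 4 passed in B10.D2 by edgeR. The fibroblast marker Lum passed in all 3 comparisons, but not in BALB/c with the strain fitted alone or without SNI 65 or 70, nor in rat without sham 2, sham 3 or SNT 2. Of the injury genes, 10 of 10 rose in BALB/c, 9 of 10 in B10.D2 and 6 of 6 tested in rat.

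The pattern of each gene over the 20 mouse libraries was compared with 14413 annotated genes by Pearson's r of log2(CPM + 1), as a description. Libraries of a group share surgery and strain, so r also carries group differences. Nearest to Csf1 were Btc (r = 0.976), Slfn9 (0.9745) and Mmp16 (0.972). Nearest to Csf1r were C1qa (0.952), Unc93b1 (0.941) and Pld4 (0.930), and among the nearest to Cx3cr1 were Csf1r (0.905) and Zc3hav1 (0.897). Il34 was nearest to Clcn2 (0.890) and Cx3cl1 to Ddx60 (0.831). After the group means were subtracted, the nearest were Btc for Csf1 (0.836), Csrp1 for Il34 (0.911), Thbs1 for Csf1r (0.931), Slc10a3 for Cx3cl1 (0.846) and Fcrls for Cx3cr1 (0.898). Within groups Csf1r and Cx3cr1 kept r = 0.815 with each other, whereas Csf1 had r = 0.201 with its receptor Csf1r and Cx3cl1 had r = 0.238 with Cx3cr1.

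The LncRNAs assembled by the authors were searched within 100 kb of each gene. LncRNA4292 lay 34002 bases from Csf1 on the opposite strand, held 61 counts over all 20 libraries and was not tested. LncRNA5640 and LncRNA5546 lay 13093 and 57389 bases from Cx3cl1, and LncRNA5868 lay 52571 bases from Cx3cr1. LncRNA5546 had a log2 fold change of 0.20 (adjusted p = 0.307) in BALB/c and -0.02 (adjusted p = 0.965) in B10.D2. LncRNA5640 had 0.28 (adjusted p = 0.456) and -0.08 (adjusted p = 0.896), and LncRNA5868 had -0.18 (adjusted p = 0.617) and -0.15 (adjusted p = 0.733). No member's exons were shared with an assembled LncRNA, and Il34 and Csf1r had none in range.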

How the data were processed

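The 20 mouse and 8 rat libraries with a column in the count tables were grouped by the labels. Of the labelled samples, 59 (sham, B10.D2) was not analysed here, nor was 66 (SNI, BALB/c). Mouse libraries carry the sample number of their title. Rat libraries are numbered 1 to 4 in each group.

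Per the study's methods, mouse libraries were made from ribodepleted RNA and rat libraries from polyadenylated RNA, both strand-specific. The authors aligned paired reads with STAR to mm10 and rn6 and counted them with HTSeq (intersection-nonempty). The submitters' processing notes also name SAMtools and DESeq2, and versions were not given in the sources used here. The deposited tables hold these raw counts per feature. Deposited tables of the authors' own fold changes and p-values were not used beyond their symbol column. Deposited splice junction and LncRNA positions were used as positions.

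Counts were tested with edgeR 4.0.16 (R 4.3.3, quasi-likelihood F test, TMM, filterByExpr), with group and sex in mouse and surgery in rat, and p-values were adjusted by Benjamini-Hochberg over all features. A feature is called at an adjusted p under 0.05. The SE is the absolute log2 fold change over the square root of F, and intervals are 95%. All tests were two-sided, and mouse comparisons share 1 fit and, within a strain, their control libraries. CPM are counts over the library total times the TMM factor. GENCODE M21 held 49326 of 49585 mouse Ensembl identifiers. RefSeq promoter windows matched 3 of 5 members. Log2 ratios used a pseudocount of 0.5 count and exact permutation tests (SciPy 1.17.1). The models were tested on simulated data. Each mouse library is 1 animal and each rat library a pool of 3, and counting error alone limits a rat zero at 3 counts, 0.168 to 0.251 CPM.

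Members and lists were chosen with earlier results of these data known. Of each pathway list, the up to 4 genes with the smallest adjusted p in any injury comparison were given values. Genes called in a list are named without values outside that rule. The 3 genes with the highest r to a member, with and without group means, were taken among annotated genes of a mean of at least 1 CPM, and the first or all of them are named, except 1 gene near Cx3cr1 that is not reported here. Alternatives were DESeq2 1.42.0, RLE factors, library totals alone, no low-count filter, at least 10 counts in every library, leaving out each library, no sex term, each strain alone, the rat run number as a block and rat without sham 4 and SNT 1.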

Additional observations from a re-analysis of the deposited data

Results flagged for a closer look

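Csf1 in rat sham library 4, at 63.7 CPM, stood apart from the other sham libraries: its gap to the next was 0.859 of the whole range of the group, above Dixon's 95% critical value for 4 samples. The test was run on 24 groups of the 5 genes, and chance flags about 1 group in 20. Summed injury genes (932 CPM) and summed macrophage markers (1942 CPM) were also highest of the sham libraries in sham 4. Whether they share a source was not tested. Without sham 4 the log2 fold change of Csf1 was 1.61 in place of 1.23.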

How the results depend on the processing

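Csf1 kept its direction and its call in both strains and in rat under every alternative run, at 0.84 to 0.91 in BALB/c, 0.53 to 0.64 in B10.D2 and 1.12 to 1.69 in rat on the log2 scale, and so did Cx3cr1 in BALB/c and in rat. Without the sex term the BALB/c change of Csf1r (0.47) and the strain difference of Cx3cr1 in sham (0.60, leaving 0 members called) missed the threshold, and the strain by injury differences of Csf1r (0.011) and Cx3cl1 (0.012) turned positive. With BALB/c fitted alone Csf1r was 0.48 and missed it. In B10.D2, Csf1r passed with DESeq2 (0.42), with no low-count filter (0.42) and with the strain fitted alone (0.46), making 2 members called. Over all features, the strain by injury calls were 10 in DESeq2 and 3 with at least 10 counts in every library, against 6. Calls between sexes were 246 in DESeq2 and 222 with no low-count filter against 60, and DESeq2 called 1 feature for sex by injury. Without rat sham 4 and SNT 1, rat calls rose from 3753 to 6100. Scaling by library totals alone turned LncRNA5546 in B10.D2 to 0.0080. Csf3r in rat turned positive with library totals (0.035), no filter (0.018), the run block (0.036) and without sham 4 and SNT 1 (0.43). The cause of these shifts was not tested.

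The rat run number was also fitted as a replicate block. Deviations from group means had r of 0.0529, -0.238, -0.0851 and -0.0703 between same-numbered libraries. Between libraries of different number r ran from -0.477 to 0.426. With so few libraries these values cannot show whether a run effect was shared. With the block Csf1 was 1.32, Cx3cr1 1.42, and 2558 features were called. The calls of Csf2rb (adjusted p = 0.0575) and Ms4a7 (adjusted p = 0.0761) were lost, list genes of the fractalkine route called fell from 3 to 1, and Lum was no longer called.

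Leaving out 1 library at a time gave these ranges. BALB/c Csf1r was 0.38 to 0.59. B10.D2 calls were 665 (without SNI 90) to 1214, and 730 without SNI 69. Members called there were 1 to 2, with Csf1r (0.35 to 0.49) passing without BALB/c sham 51 or 55, and Il34 was -0.0045 to 0.088. Strain by injury calls were 3 to 6, at 3 without B10.D2 sham 67, BALB/c sham 71, SNI 49 or SNI 65, with Csf1r at -0.15 to 0.061 and Cx3cl1 at -0.14 to 0.092. Between strains in sham, members called were 1 to 2, Il34 was -0.068 to 0.015 and Csf1r 0.16 to 0.37, passing without BALB/c sham 55. In SNI, members called were 0 to 1, Csf1 was -0.25 to -0.14 and Cx3cl1 -0.019 to 0.22. Sex calls were 35 (without B10.D2 SNI 89) to 159 (without BALB/c sham 56), and 38 without BALB/c SNI 65. Sex by injury was -0.050 to 0.079 for Csf1 and -0.094 to 0.026 for Il34. Rat calls were 1483 (without sham 3) to 5041 (without SNT 1), with 2163 and 2219 without sham 1 and 2, and 1622, 1919 and 2113 without SNT 2, 3 and 4. The injured minus sham difference in the log2 ratio of Csf1 to Il34 was 0.66 to 0.79 in BALB/c and 0.49 to 0.57 in B10.D2. The smaller permutation sets could not reach an adjusted 0.05. In rat that difference for Cx3cr1 to macrophage markers was -0.16 to 0.24. It was 0.31 with the mean of log2 marker counts in place of their sum (0.05). B10.D2 Csf3r was -0.28 to 0.14, LncRNA5546 -0.095 to 0.068 and LncRNA5640 -0.18 to 0.013, and rat Csf3r was -0.16 to 0.33 and Trem2 -0.031 to 1.63. Depth limits the rat zeros, and 4 to 6 libraries a group limit the rest.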
